A study of Mus musculus with 4 samples.

Results

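Cholesterol genes were followed in Hepa1-6, a mouse hepatocellular carcinoma cell line, with and without a knockout of Acvr2a, which encodes a receptor for activin. The symbols of 32 genes were taken as a list, and all 32 were found among the 54838 gene entries of the deposited files. They comprise 18 enzymes of sterol synthesis, 5 genes that control the SREBP transcription factors, 5 genes of cholesterol efflux and the LXR receptors, and 4 genes of sterol transport and storage. The control libraries (NC 1 and NC 2) are labelled wild type for Acvr2a, and the others (KO 1 and KO 2) are labelled Acvr2a knockout. The series calls the knockout cells subclones, without saying whether KO 1 and KO 2 are separate clones, nor whether replicates were separate cultures. P-values therefore measure only the spread between these libraries, which may be technical, and properties of a clone cannot be told apart from the knockout.

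Cells make cholesterol from acetyl-CoA through mevalonate, isoprenoid units and squalene, which is cyclised to lanosterol and then trimmed to cholesterol. SREBP factors, held in the endoplasmic reticulum by SCAP and the INSIG proteins when sterols are plentiful, switch on the synthesis enzymes when sterols run short. LXR receptors respond to oxidised sterols and raise the transporters that export cholesterol. In liver cells these opposite programmes set how much sterol is made, taken up, stored and released.

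The libraries held between 11597923 and 13910582 counts. Acvr2a RNA was counted 81 and 108 times in NC and 75 and 97 times in KO (log2 fold change -0.21, SE 0.20, edgeR adjusted p = 0.433). Its RNA level thus overlapped between the groups, whose names follow the labels. The hepatocyte markers Alb and Afp were abundant, with 9550 to 15545 counts of Alb and 1507 to 3515 of Afp per library, while Ttr had at most 1 count and Apoa2 at most 19. At an edgeR adjusted p under 0.05, 18.2% of all tested genes were lower in KO and 19.7% higher. Of 9 tested hepatocyte markers, 5 were lower in KO, among them Afp (log2 fold change -1.21) and Foxa2 (-0.89). The 2 that were higher in KO were Trf (0.54) and Alb (0.41). The summed level of the hepatocyte markers was 1940 to 2031 CPM in NC and 1965 to 2149 CPM in KO. Leukocyte markers summed to 2.37 and 3.47 CPM in NC and 4.40 and 3.85 CPM in KO, and endothelial ones to 2.11 and 1.08 CPM in NC and 0.911 and 1.85 CPM in KO, with Cd3e, Cdh5 and Tek at 0 counts. Mesenchymal markers summed to 1472 and 1483 CPM in NC and 1618 and 1694 CPM in KO, almost all of it Dcn, which did not pass the test (log2 fold change 0.16), and Lum and Reln had 0 counts. Of 3 tested mesenchymal markers 2 were higher in KO and 0 lower, namely Des (1.28) and the scarce Col1a1 (2.73, with 5 to 6 counts in NC and 38 to 41 in KO). Among 5 biliary markers 3 were higher and 1 lower, with sums of 450 to 463 CPM in NC and 505 to 511 CPM in KO. The part of these markers in the results on cholesterol genes was not tested. In such bulk RNA, fewer cells of a kind and less RNA per cell cannot be told apart.

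Promoter windows of the members are shown first, because genes of this pathway share sequence features that the list did not use. A window covers 250 bases before to 50 after an annotated start (RefSeq, GRCm38.p6), written in the direction of the gene, and 26 members were in that table, with 35 windows. Sqle, Fdps, Fdft1, Stard4, Npc1 and Abcg1 were not matched. Capitals mark 2 motifs, searched exactly and on both strands. These are the sterol regulatory element TCACNCCAC, where SREBP binds, and the CCAAT box (ATTGG on the other strand), where the partner factor NF-Y binds. Hmgcs1 is shown as the only member with the sterol regulatory element, Idi1 and Tm7sf2 as synthesis genes that were lower in KO, and Insig1 and Insig2 as the SREBP control genes that were higher. Of 3 windows for Insig2, the one that holds CCAAT boxes is given.
Hmgcs1 (chr13:119690101-119690400, plus strand): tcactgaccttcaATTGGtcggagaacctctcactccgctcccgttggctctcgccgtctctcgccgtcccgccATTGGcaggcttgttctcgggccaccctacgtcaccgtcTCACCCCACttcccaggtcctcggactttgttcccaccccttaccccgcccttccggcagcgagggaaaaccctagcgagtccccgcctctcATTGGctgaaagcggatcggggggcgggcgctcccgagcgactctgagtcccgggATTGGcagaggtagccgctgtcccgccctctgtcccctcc
Idi1 (chr13:8885356-8885655, plus strand): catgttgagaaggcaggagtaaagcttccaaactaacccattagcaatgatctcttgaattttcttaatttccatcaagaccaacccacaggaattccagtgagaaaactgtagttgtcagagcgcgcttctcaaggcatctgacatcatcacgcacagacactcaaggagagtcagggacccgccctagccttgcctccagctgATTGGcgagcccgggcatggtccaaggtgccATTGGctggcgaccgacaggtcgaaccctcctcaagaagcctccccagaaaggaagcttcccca
Tm7sf2 (chr19:6067801-6068100, minus strand): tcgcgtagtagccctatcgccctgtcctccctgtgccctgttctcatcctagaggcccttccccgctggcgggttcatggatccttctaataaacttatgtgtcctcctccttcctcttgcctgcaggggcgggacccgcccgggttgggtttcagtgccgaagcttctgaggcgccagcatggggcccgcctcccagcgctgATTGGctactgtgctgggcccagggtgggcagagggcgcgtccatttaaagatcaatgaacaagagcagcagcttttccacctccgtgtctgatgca
Insig1 (chr5:28071162-28071461, plus strand): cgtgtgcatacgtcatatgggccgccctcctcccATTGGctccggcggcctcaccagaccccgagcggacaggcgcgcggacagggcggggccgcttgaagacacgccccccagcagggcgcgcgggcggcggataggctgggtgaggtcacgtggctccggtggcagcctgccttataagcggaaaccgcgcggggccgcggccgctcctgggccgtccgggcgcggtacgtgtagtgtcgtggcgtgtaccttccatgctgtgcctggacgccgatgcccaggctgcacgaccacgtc
Insig2 (chr1:121332540-121332839, minus strand): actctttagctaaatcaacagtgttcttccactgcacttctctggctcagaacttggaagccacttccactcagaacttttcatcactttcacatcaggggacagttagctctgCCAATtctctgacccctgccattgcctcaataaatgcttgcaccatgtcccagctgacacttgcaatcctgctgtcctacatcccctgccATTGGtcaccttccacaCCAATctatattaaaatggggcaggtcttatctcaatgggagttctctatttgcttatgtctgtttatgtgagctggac

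A CCAAT box lay in a window of 21 of the 26 members (80.8%), against 41.1% of all 27025 genes in the table. By window the shares were 22 of 35 for the members and 37.4% of all windows. Among synthesis genes 14 of 15 had one, and among efflux and LXR genes 1 of 4, Mylip. The box did not go with one direction of change. It was present in 7 of 9 members that were lower in KO, 3 of 3 that were higher and 11 of 14 that passed in neither direction. The exact sterol regulatory element was found in 1 member, Hmgcs1, starting 137 bases before the start, against 1.44% of all genes. The LXR direct repeat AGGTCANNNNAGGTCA was in 0 of 26 members and 0.0148% of all genes. A missing match says only that these letters are not in these windows.

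Members were then compared between the groups. Counts were tested with edgeR's quasi-likelihood test over all 12510 genes that passed the filter on low counts, with adjusted p-values over all of them and a threshold of 0.05. All 32 members were tested. In KO, 4 members rose and 12 fell, so 16 of 32 were called, where 37.9% of all tested genes were called, 19.7% higher and 18.2% lower. The median log2 fold change (KO minus NC) was -0.11 over the members and 0.00 over all tested genes. The CPM values (counts scaled to library size with TMM factors) of the groups did not overlap for 21 of the 32, close to the 69.4% of all genes for which they did not.

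**Figure D1:**
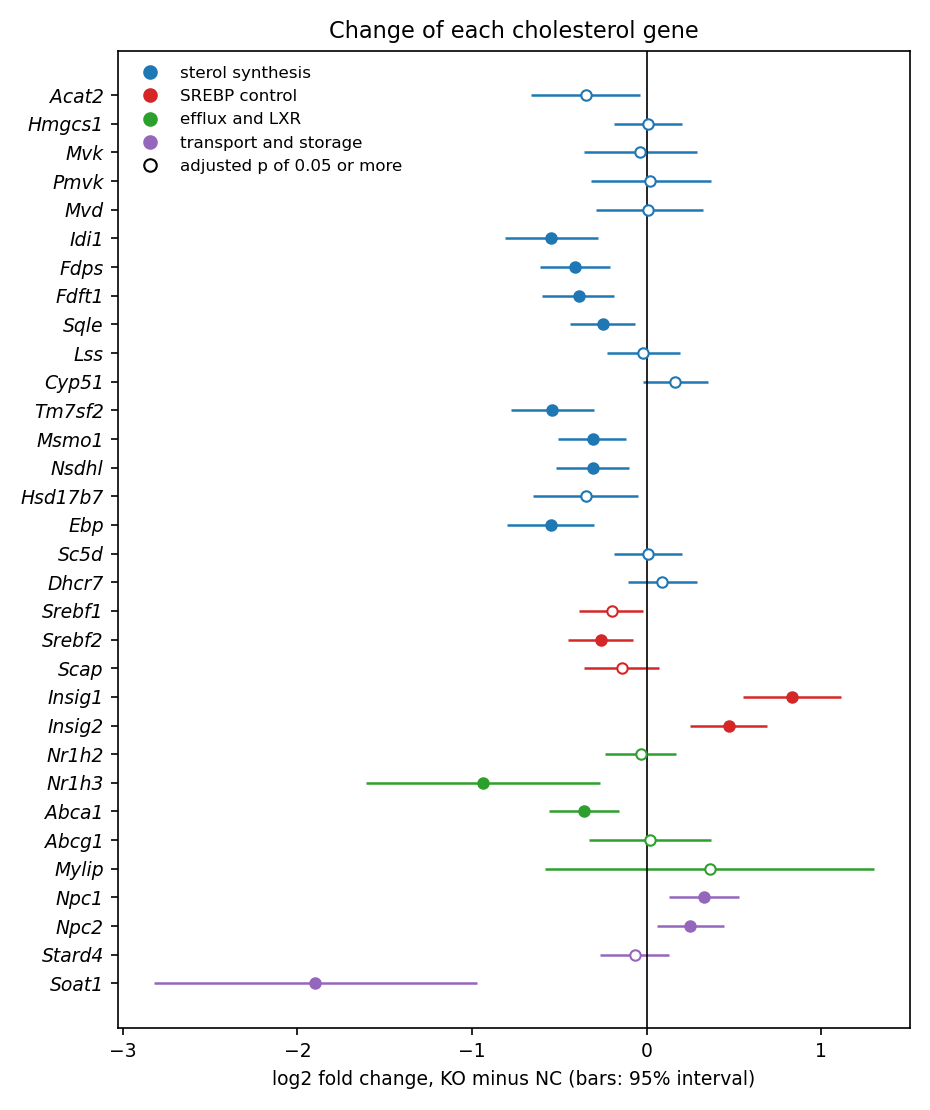
Log2 fold change of each of the 32 genes, KO minus NC, with 95% intervals, from the count fit of 2 NC and 2 KO libraries. Colours give the role and open points had an adjusted p of 0.05 or more. Filled synthesis points all lie below 0, while Insig1 (0.83) and Insig2 (0.47) lie above it.

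Sterol synthesis genes that passed the threshold were all lower in KO. The called share, 44.4%, was near the 37.9% of all tested genes, where 18.2% were lower and 19.7% higher. Of the 18 enzymes 8 fell and 0 rose past the threshold, with a median log2 fold change of -0.28 and a range from -0.55 to 0.16. The falls were modest, between 16.0% and 31.6%, and the calls lay in runs of neighbouring steps. The first steps of the mevalonate route did not pass the test, the steps from isopentenyl units to squalene epoxide fell, and so did several of the steps that trim lanosterol. These runs are of calls, not of sizes of change. Acat2 and Hsd17b7 did not pass at -0.35 each, while Sqle passed at -0.25. Differences between steps were not tested.

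At the entry to the pathway, Hmgcs1 (chromosome 13, 119690379 to 119708260), the synthase that makes HMG-CoA, was at 70.5 and 69.5 CPM in NC and 73.4 and 67.4 CPM in KO. The groups overlapped, and the 95% interval of its log2 fold change ran from -0.19 to 0.20. The kinases Mvk and Pmvk and the decarboxylase Mvd, which carry mevalonate to isopentenyl pyrophosphate, had log2 fold changes of -0.04, 0.02 and 0.01. Their intervals were wider, -0.36 to 0.29, -0.32 to 0.37 and -0.29 to 0.32, with between 114 and 226 counts of each gene per library. Acat2, the cytosolic thiolase that supplies acetoacetyl-CoA, averaged 15.9 ± 1.16 CPM over the NC libraries against 12.5 ± 0.909 CPM over the KO libraries (SD, n = 2). Its log2 fold change of -0.35 missed the threshold (edgeR adjusted p = 0.0670). The value of Acat2 is uncertain, because 39.1% of the 50-base stretches in its transcripts also occur in those of Acat3 or Tcp1.

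Idi1 (chromosome 13, 8885501 to 8892451), the isomerase of isopentenyl pyrophosphate, was at 29.5 and 26.9 CPM in NC and 18.1 and 20.4 CPM in KO. Both KO libraries were below both NC libraries, and Idi1 fell by 31.6% (log2 fold change -0.55, SE 0.13, adjusted p = 0.00141). Fdps (chromosome 3, 89093588 to 89101959), which joins isoprene units into farnesyl pyrophosphate, was at 89.3 and 93.4 CPM in NC and 73.7 and 63.6 CPM in KO, and fell by 24.9% (log2 fold change -0.41, SE 0.10, adjusted p = 0.00145). Fdft1 (chromosome 14, 63145150 to 63179578), squalene synthase, was at 71.3 and 62.4 CPM in NC and at 51.0 and 50.6 CPM in KO. It fell by 23.9% (log2 fold change -0.39, SE 0.10, adjusted p = 0.00275), with the KO libraries close to each other and below both NC libraries. Sqle (chromosome 15, 59315077 to 59331192), the epoxidase that acts on squalene, was at 280 and 295 CPM in NC and 245 and 238 CPM in KO, a fall of 0.25 on the log2 scale (log2 fold change -0.25, SE 0.09, adjusted p = 0.0273). These are consecutive steps. Each was lower in both KO libraries, where 69.4% of all tested genes did not overlap between the groups. Between 25.3% (Idi1) and 26.5% (Fdft1) of the 50-base stretches of Idi1, Fdps and Fdft1 occur in transcripts of other genes as well. For Idi1 and Fdps these were predicted genes such as Gm13502 and Gm43738, and for Fdft1 mainly Ctsb on the opposite strand, so these totals are uncertain. Whether the authors' counting used strand is not given in the sources used here, so here and for the other overlaps reads of the 2 strands may not have been kept apart.

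Around lanosterol the pattern was mixed. Lss, the cyclase that forms lanosterol, was at 41.3 and 43.6 CPM in NC and 41.0 and 42.8 CPM in KO, with overlapping groups (log2 fold change -0.02, 95% interval -0.23 to 0.19). Cyp51, the demethylase that acts next, was the only synthesis gene with both KO libraries above both NC libraries, at 150 and 153 CPM against 136 and 135. It did not pass, at 0.16 on the log2 scale (SE 0.09, adjusted p = 0.165).

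Tm7sf2 (chromosome 19, 6062821 to 6068373), a sterol reductase, was at 39.4 and 44.3 CPM in NC and 31.7 and 25.9 CPM in KO. It fell by 31.3% (log2 fold change -0.54, SE 0.12, adjusted p = 6.14e-04), though it shares exons with Vps51 on the same strand. Msmo1 (chromosome 8, 64718139 to 64733792), the methyl oxidase, was at 179 and 159 CPM in NC and 128 and 144 CPM in KO, and fell by 19.5% (log2 fold change -0.31, SE 0.10, adjusted p = 0.0113). Its partner in the same demethylation, the dehydrogenase Nsdhl (chromosome X, 72918557 to 72958514), was at 49.1 and 46.2 CPM in NC and 37.5 and 39.5 CPM in KO, and had the same log2 fold change of -0.31 (SE 0.10, adjusted p = 0.0202). In all 3 genes the KO libraries lay below the NC libraries, where 69.4% of all tested genes did not overlap between the groups. Hsd17b7, the ketosteroid reductase of that complex, was at 19.4 and 24.6 CPM in NC and 15.4 and 19.2 CPM in KO, short of the threshold (log2 fold change -0.35, SE 0.15, adjusted p = 0.0599). The call of Hsd17b7 depended on the fit. It passed with no filter on low counts (adjusted p = 0.0419), in the robust fit (0.0416), with the replicate block (0.0331), without NC 1 (log2 fold change -0.50, 0.0133) and without KO 2 (-0.52, 0.0119), but was at -0.16 without NC 2 and -0.20 without KO 1.

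Ebp (chromosome X, 8185329 to 8193512), the sterol isomerase, was at 32.4 and 30.3 CPM in NC and 22.2 and 20.6 CPM in KO, a fall of 31.6% (log2 fold change -0.55, SE 0.12, adjusted p = 8.44e-04). The last enzymes, Sc5d (log2 fold change 0.01, 95% interval -0.19 to 0.20) and Dhcr7 (0.09, -0.11 to 0.29), overlapped between the groups. The calls therefore covered only a part of the pathway in these libraries: 8 enzymes fell, and for 4 of the others (Hmgcs1, Lss, Sc5d and Dhcr7) the interval stayed within -0.23 and 0.29. Differences between enzymes were not tested. The interval of Hmgcs1, -0.19 to 0.20, overlapped that of Sqle, -0.44 to -0.07.

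**Figure D2:**
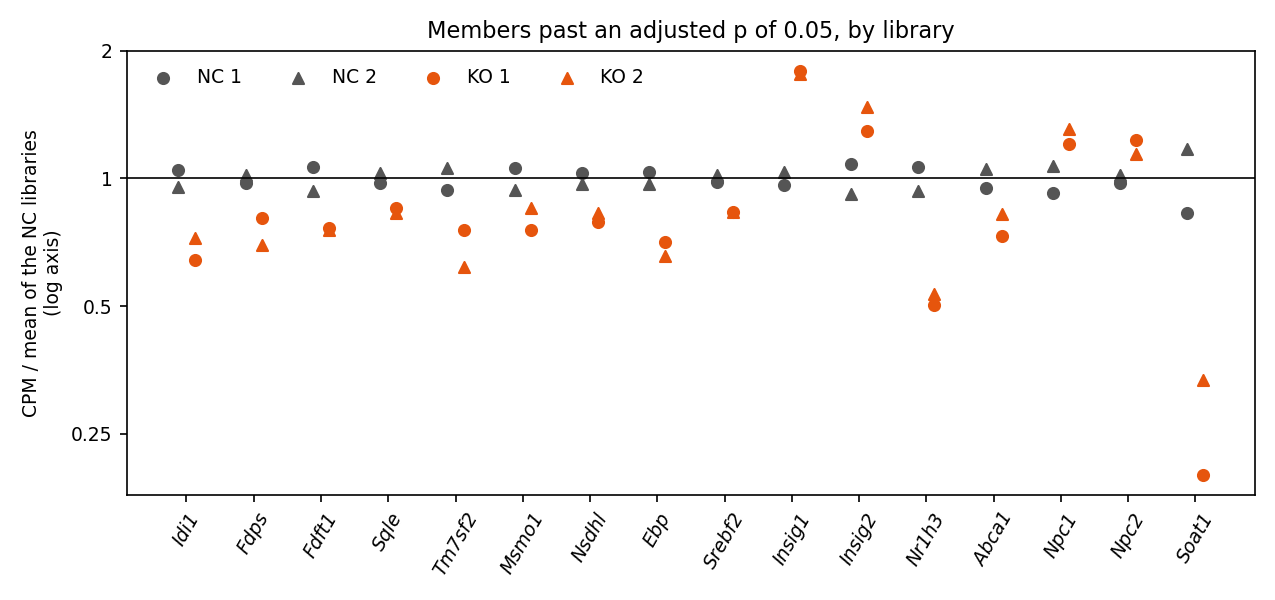
CPM of each of the 16 members past an adjusted p of 0.05, divided by the mean of the NC libraries, on a log axis, with 1 point per library. Each of these genes has both KO points on one side of both NC points, as do 69.4% of all tested genes. Soat1 and Nr1h3 lie lowest.

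The SREBP control genes divided by role. Both INSIG genes rose, while the SREBP genes were lower or did not pass. Insig1 (chromosome 5, 28071363 to 28078662), which keeps the SREBP-SCAP complex in the endoplasmic reticulum and is itself a known SREBP target, was counted 153 and 201 times in NC and 331 and 334 times in KO. That is 13.5 and 14.5 CPM against 25.1 and 24.7 CPM, with no overlap. The KO libraries were 1.78-fold higher (log2 fold change 0.83, SE 0.14, adjusted p = 2.38e-05), the largest rise among the members. Insig2 (chromosome 1, 121304353 to 121332589), its paralog with the same anchoring role, was at 43.5 and 37.0 CPM in NC and 52.1 and 59.3 CPM in KO, 1.39-fold higher (log2 fold change 0.47, SE 0.11, adjusted p = 9.89e-04). On the length-scaled TPM scale Insig2 remained the more abundant of the pair, at 52.2 ± 6.57 TPM in KO against 14.3 ± 1.45 TPM for Insig1 (SD, n = 2).

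Srebf2 (chromosome 15, 82147181 to 82205379), the SREBP gene most tied to cholesterol synthesis, was at 320 and 334 CPM in NC and 272 and 273 CPM in KO. It fell by 16.7% (log2 fold change -0.26, SE 0.09, edgeR adjusted p = 0.0213). In TPM Srebf2 overlapped between the groups, at 91.7 ± 9.16 in NC and 92.4 ± 1.55 in KO (SD, n = 2). Srebf1, the SREBP gene most tied to fatty acid synthesis, was at 215 CPM in both NC libraries and at 193 and 180 CPM in KO (log2 fold change -0.20, SE 0.09, adjusted p = 0.0751). Scap, the sterol sensor that escorts SREBP, overlapped between the groups, with 64.7 and 51.7 CPM in KO around the 62.5 and 65.9 CPM of NC. Its log2 fold change of -0.14 had an interval from -0.36 to 0.07. Srebf1 shares exons with Rai1 and Scap with 5830462I19Rik, each on the opposite strand.

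Among the efflux and LXR genes, 2 of 5 members fell and 0 rose, and their median log2 fold change was -0.03. The called share, 40.0%, was near the 37.9% of all tested genes. Nr1h2, which encodes LXR beta, was the most abundant of them at 80.8 ± 9.41 TPM in NC and 82.1 ± 4.03 TPM in KO (SD, n = 2), and its log2 fold change was -0.03 (95% interval -0.24 to 0.17). Nr1h3 (chromosome 2, 91184061 to 91202834), which encodes LXR alpha, was counted 42 and 45 times in NC and 23 and 25 times in KO. It fell by 47.9% (log2 fold change -0.94, SE 0.33, adjusted p = 0.0228), from a low level of 2.45 ± 0.134 TPM (SD, n = 2). An exon of Nr1h3 overlaps Gm13783 on the same strand, though 0% of its 50-base stretches occur in transcripts of other genes.

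Abca1 (chromosome 4, 53030787 to 53159895), the transporter that loads cholesterol onto apolipoprotein A-I, was at 90.9 and 101 CPM in NC and 70.1 and 79.0 CPM in KO. It fell by 22.3% (log2 fold change -0.36, SE 0.10, adjusted p = 0.00419). Abcg1, which exports cholesterol to HDL particles, overlapped between the groups at 9.79 to 12.1 CPM over the 4 libraries, with an interval of its log2 fold change from -0.33 to 0.37. Mylip, an LXR-induced ubiquitin ligase that removes lipoprotein receptors, was counted only 10 and 15 times in NC, and 14 and 20 times in KO. Its interval, -0.58 to 1.30, was wide, and a change was not detectable at this depth. The median of the synthesis genes was lower than that of the efflux and LXR genes by 0.25 (difference -0.25), a description without a test. That difference was small without NC 2 (-0.04), without KO 2 (-0.11) and on the log2(TPM + 1) scale (-0.06), and without KO 1 the efflux median turned to 0.03.

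Transport and storage genes went both ways. Npc1 (chromosome 18, 12189692 to 12236400) and Npc2 (chromosome 12, 84754562 to 84773152), which pass cholesterol out of lysosomes one after the other, both rose. Npc1 was at 88.4 and 102 CPM in NC and 115 and 125 CPM in KO (log2 fold change 0.33, SE 0.10, adjusted p = 0.00787). Npc2 was at 116 and 121 CPM in NC and 147 and 136 CPM in KO (log2 fold change 0.25, SE 0.09, adjusted p = 0.0315). In both genes the groups did not overlap, as in 69.4% of all tested genes. Npc1 shares exons with Rmc1 and Gm15956 on the opposite strand. Stard4, a cytosolic sterol carrier, was at 58.0 and 57.6 CPM in NC and 53.6 and 56.4 CPM in KO, a log2 fold change of -0.07 that did not pass (95% interval -0.27 to 0.13).

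Soat1 (chromosome 1, 156424525 to 156474331), which esterifies cholesterol for storage in droplets, showed the largest change of all members and one of the lowest levels. Reads assigned to it numbered 25 and 43 in NC against 7 and 12 in KO, and it fell by 73.1% (log2 fold change -1.90, SE 0.45, 95% interval -2.82 to -0.97, adjusted p = 9.28e-04). In TPM it was at 0.680 and 2.30 in NC and 0.420 and 0.260 in KO, so NC 1 lay nearer to the KO libraries than to NC 2 on that scale.

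**Figure D3:**
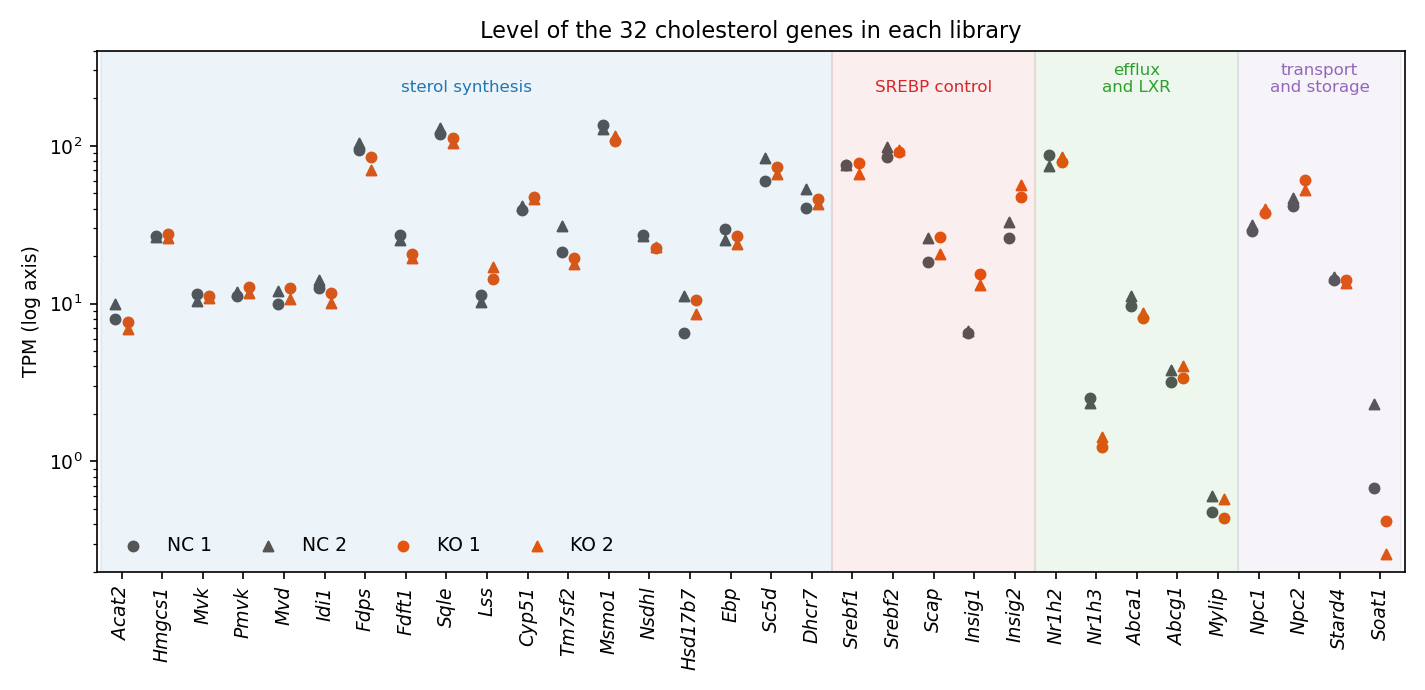
TPM of the 32 genes in each of the 4 libraries on a log axis, grouped by role, with NC in grey and KO in orange. Msmo1, Sqle, Fdps and Srebf2 are the highest in NC and Soat1 and Mylip the lowest, while Insig1 and Insig2 are higher in both KO libraries.

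Levels per length spanned from 0.540 ± 0.0849 TPM for Mylip to 132 ± 5.78 TPM for Msmo1 in NC (SD, n = 2). Msmo1 and Sqle (124 ± 8.90 TPM) were the most abundant in both groups, and differed in NC by less than the spread of Sqle. Among synthesis genes the lowest were Hsd17b7 (8.85 ± 3.26 TPM) and Acat2 (8.99 ± 1.34 TPM), which also differed by less than their spread. Insig1 moved furthest up the order of levels, from 28th to 20th of the 32 genes, and Idi1 furthest down, from 20th to 25th.

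Counts and TPM gave different pictures for some members. TPM divides by a transcript length that is estimated in each library, and the part of this in the differences was not tested. Both scales come from the same reads, so TPM gives no separate support for a call. The share of all genes without overlap in TPM was not computed. Of the 16 called members, 14 also had TPM values that did not overlap between the groups, in the direction of the count result. The exceptions were Ebp, at 29.6 and 25.4 TPM in NC and 26.7 and 23.9 TPM in KO, and Srebf2, at 85.2 and 98.2 TPM in NC and 91.3 and 93.5 TPM in KO. The estimated mean transcript length of Ebp was 1402 and 1572 bases in NC and 1209 and 1198 bases in KO, and that of Srebf2 was 4234 and 4048 bases in NC and 3689 and 3487 bases in KO. Lss, flat in counts, was at 11.4 and 10.3 TPM in NC and 14.4 and 17.1 TPM in KO, with lengths of 4093 and 4987 bases against 3547 and 3021 bases. For Insig2 the rise was larger in TPM, from 29.5 ± 4.77 to 52.2 ± 6.57 (SD, n = 2). In limma on log2(TPM + 1), 3 of 32 members passed an adjusted p of 0.05 (Insig1, Insig2 and Nr1h3) and 0 of 18 synthesis genes, where 17.3% of all genes did. The median of the synthesis genes was -0.09 in that fit. At an unadjusted p under 0.05, 5 of 18 synthesis genes passed there, and the share of all genes was not computed. In the same fit without a filter on low values, 5 synthesis genes and 4506 of all 20640 genes passed unadjusted.

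**Figure D4:**
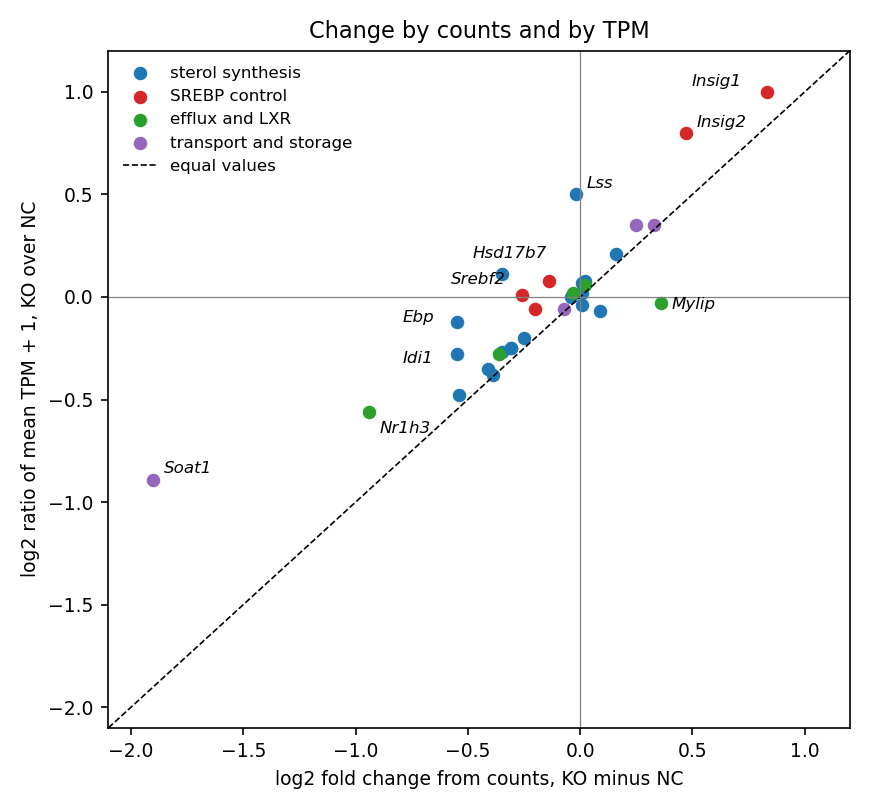
Change of each member from counts (horizontal, log2 fold change) against the log2 ratio of mean TPM + 1 (vertical), KO over NC, with colours by role and a dashed line of equal values. Lss, Hsd17b7, Ebp and Srebf2 lie above the line, and low genes such as Soat1 are drawn toward 0 on the vertical axis by the added 1.

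Among the 11 alternative count fits without a block, 7 of the 16 called members kept their call in each one that tested them. These were Idi1, Fdps, Tm7sf2, Ebp, Insig1, Insig2 and Soat1. The other 9 lost it in at least 1. The share of all called genes that kept their call was not computed. Without NC 1, the median log2 fold change of the synthesis genes was -0.24, against -0.28 with all libraries. The calls of Fdft1 (adjusted p = 0.0675), Sqle (0.0559), Msmo1 (0.155), Nsdhl (0.133), Npc1 (0.155), Npc2 (0.165) and Nr1h3 (0.0844) were lost, and that of Hsd17b7 was gained. Without NC 2, Sqle (0.187), Srebf2 (0.152), Abca1 (0.0818) and Npc2 (0.0717) did not pass. Without KO 1, Msmo1 (0.0823), Nsdhl (0.0893), Nr1h3 (0.107) and Npc2 (0.127) did not, while Srebf1 (0.0490) and Scap (0.0328) did. Without KO 2, Sqle (0.0904) and Nr1h3 (0.0942) did not pass and Hsd17b7 did. DESeq2 did not call Nsdhl (0.103), Nr1h3 (0.190) or Npc2 (0.0690). Sqle (0.0714) and Srebf2 (0.0569) did not pass with library totals as the only scaling, nor Npc2 (0.0617) with no filter on low counts.

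Other genes of the pathway, outside the 32, were taken from lists written from general knowledge, with earlier results of these data known. The called share was above the 37.9% of all tested genes for lipogenic genes (46.7%) and for lipoprotein uptake. It was near 37.9% for other efflux and LXR genes (38.5%) and for oxysterol and bile acid enzymes (37.5%). It was lower for isoprenoid use (31.2%), for genes that process or degrade the SREBP system and for other sterol transport. Whether any list differed from all genes was not tested. In the list of other enzymes of isoprenoid use, 1 of 16 tested genes rose and 4 fell (median log2 fold change -0.11). Pdss2, which builds the tail of coenzyme Q, went from 12.1 ± 0.0559 to 6.79 ± 0.703 CPM (SD, n = 2; log2 fold change -0.83, SE 0.18, adjusted p = 5.31e-04). Srd5a3 (-0.62), a reductase needed for dolichol, and Rce1 (-0.37), a protease that trims prenylated proteins, also fell. Pdss2 shares exons with Gm47856 on the same strand.

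Among the genes that process or degrade the SREBP system, 1 of 16 tested rose and 3 fell (median -0.10). Small falls were seen for Mbtps1 (-0.28), the protease that first cuts SREBP, and for Aup1 (-0.24), which takes part in protein degradation at the endoplasmic reticulum and shares exons with Htra2 on the other strand. Lipogenic genes driven by SREBP-1 went both ways, with 3 of 15 tested higher and 4 lower (median -0.11). Acss2, which makes acetyl-CoA from acetate, rose from 9.55 ± 0.691 to 19.6 ± 1.40 CPM (SD, n = 2; log2 fold change 1.03, adjusted p = 5.77e-06), while Mid1ip1 (-0.84), an activator of acetyl-CoA carboxylase, and the elongase Elovl6 (-0.59) fell. All of them share exon sequence with a gene of the other strand (Gss among them for Acss2, Gm14493 for Mid1ip1, Gm35986 for Elovl6).

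For lipoprotein uptake, 4 of 12 tested genes rose and 2 fell (median 0.14). Vldlr, a lipoprotein receptor, was at 54.3 and 55.9 CPM in NC and 82.1 and 91.2 CPM in KO (log2 fold change 0.65, SE 0.10, adjusted p = 7.31e-06). Lrpap1 (0.85), a chaperone of such receptors, and Sort1 (0.51), a sorting receptor that overlaps Gm12523 on the other strand, rose too. In the list of other efflux and LXR genes, 5 of 13 tested rose and 0 fell (median 0.21), led by the transporter genes Abca2 (0.69), Abca7 (0.64) and Abcg2 (0.95). Abca1 and Nr1h3 were lower and Abcg1 had no call, and the difference between these groups of genes was not tested.

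Of the other sterol transport genes 3 of 20 tested rose and 3 fell (median 0.08), with Gramd1a (0.48), a sterol carrier between plasma membrane and endoplasmic reticulum, higher, and Tspo (-0.62) and Lamp1 (-0.26) lower. Each of the 3 overlaps exons of an opposite-strand gene. In the list of oxysterol and bile acid enzymes 8 of 15 genes were tested, and 2 rose and 1 fell (median 0.13). Amacr, a racemase of bile acid intermediates, fell by 1.05 on the log2 scale, and Cyp39a1, an oxysterol hydroxylase, rose by 1.25 (SE 0.25). Cyp46a1, the cholesterol 24-hydroxylase, was not counted in NC (0 in each library) and was counted 11 and 13 times in KO. Taking 3 counts over the NC group as its floor, it was at least 7.56-fold higher in KO, and the list median was 0.13 with that bound as well.

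**Figure D5:**
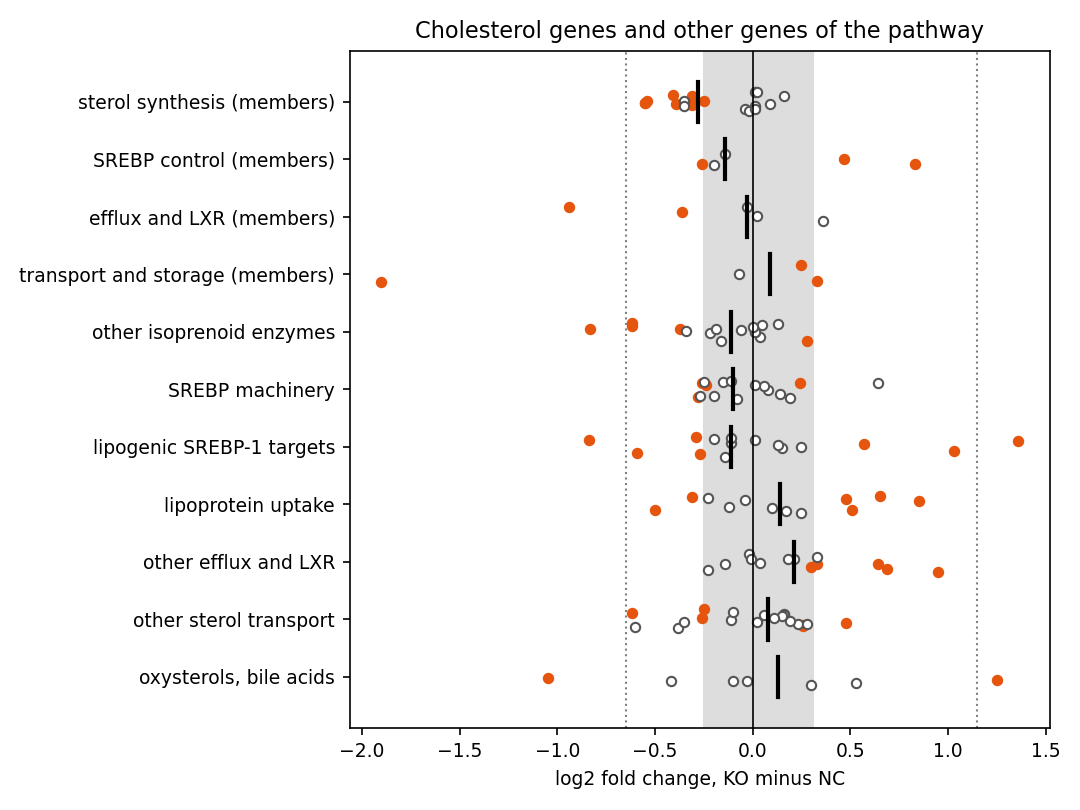
Log2 fold change, KO minus NC, of the tested genes of each list, with orange points past an adjusted p of 0.05, open points not past it and a bar at the median. The grey band and dotted lines hold the central 50% and 90% of all tested genes (-0.25 to 0.31 and -0.65 to 1.15), and Cyp46a1, at 0 counts in NC, is left out of the points. Most synthesis genes lie to the left of 0 and most other efflux and LXR genes to the right.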

How the data were processed

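RNA of 4 samples was sequenced after a directional library preparation, per the labels' protocols. Per the file headers, the authors deposited expected counts, TPM and mean transcript length per gene, in columns as RSEM writes them. The expected counts are estimates that need not be whole, and the TPM values are scaled by the authors to transcript length and depth. FastQC, STAR, RSEM, DESeq2 and the builds GRCm38 and mm10 are named in the submitters' processing notes, whereas the annotation release and strand setting are not given in the sources used here. Expected counts were rounded (totals changed by at most 0.000188%). Genes were kept by filterByExpr (12510), scaled by TMM (0.981 to 1.02) and tested with edgeR 4.0.16 (glmQLFit, glmQLFTest, R 4.3.3), group as the only term, Benjamini-Hochberg over all genes. SEs come from fitted weights and moderated quasi-dispersion, and intervals are 95%. They cover counting error and shared spread only. TPM was tested with limma 3.58.1 and counts also with DESeq2 1.42.0.

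Members and lists were chosen with earlier results of these data known. Named outside the members are the up to 3 genes per list with the lowest p past 0.05, and some items are not reported here. Of the listed pathway genes, 1 symbol was not matched. Coordinates and exon overlaps are from GENCODE M21 (GRCm38). Stretches of 50 bases shared with other genes were counted in its transcripts. The count fit was tested on simulated data. Alternatives were other scalings, filters, DESeq2, a robust fit, TPM with other pseudocounts, a replicate block and leaving out each library. Replicate numbers did not pair the samples by any label. Replicates of a group differed by more than sampling noise (chi-square per degree of freedom 7.15 and 10.0).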

Additional observations from a re-analysis of the deposited data

How the results depend on the processing

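With 2 samples per group, small changes of genes under about 50 counts (Soat1, Nr1h3, Mylip) are poorly measured. DESeq2 called 2868 genes against 4741. Limma on TPM called 2158 with a pseudocount of 1, 2099 with 0.1 and 0 without a filter on low values, where 4506 of 20640 genes had an unadjusted p under 0.05. These TPM fits called 3, 2 and 0 members, and 0, 0 and 0 synthesis members; the cause was not tested. Higher and lower calls were 2459 and 2282 as reported, 2619 and 2026 with upper-quartile factors, 2668 and 1961 with library totals only, and 1467 and 691 on log2(TPM + 1). Leaving out each library in turn gave 3586 to 4472 genes, 10 to 15 members and 5 to 8 synthesis members. The replicate block called 5006 genes, 17 members and 9 synthesis members. Replicate numbers are shared only as numbers, and deviations of same-numbered samples correlated at -0.0116. The synthesis median was -0.25 with upper-quartile factors or library totals, -0.29 with no filter on low counts, -0.26 with at least 50 counts in a group, -0.09 in the 3 TPM fits and -0.25 to -0.20 without single libraries. The efflux and LXR median ranged from -0.15 to 0.03 without single libraries, turning positive without KO 1. The difference of these medians was -0.06 (pseudocount 1, filtered or not) and -0.02 (0.1) on TPM, and -0.24 to -0.04 without single libraries. Among members that changed sign, Hsd17b7 (-0.35), Srebf2 (-0.26) and Mylip (0.36) had the count values farthest from 0. On log2(TPM + 1), filtered or not, Mvk was at 0.00, Lss at 0.50, Hsd17b7 at 0.14, Sc5d at -0.02, Dhcr7 at -0.06, Srebf2 at 0.01, Scap at 0.09, Nr1h2 at 0.03 and Mylip at -0.03. With a pseudocount of 0.1 the same genes gave 0.00, 0.53, 0.16, -0.02, -0.06, 0.01, 0.09, 0.03 and -0.07. Hmgcs1 was at -0.00 in DESeq2 and -0.01 with no filter on low counts, as was Sc5d. Lss was at 0.01 with library totals, and at 0.00 with upper-quartile factors or at least 50 counts. Leaving out single libraries gave -0.05 to 0.07 for Hmgcs1, -0.18 to 0.11 for Mvk, -0.01 to 0.06 for Pmvk, -0.08 to 0.13 for Mvd, -0.06 to 0.03 for Lss, -0.10 to 0.13 for Sc5d, -0.31 to 0.01 for Scap, -0.15 to 0.10 for Nr1h2 and -0.15 to 0.17 for Abcg1.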

Other observations

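Further genes of the pathway lists, singled out after their values were seen, had clear values in the same count fit (edgeR quasi-likelihood). Acacb, the mitochondrial form of acetyl-CoA carboxylase, rose in KO (log2 fold change 1.36, SE 0.30, adjusted p = 5.77e-04), as did Lpin1, a phosphatidate phosphatase (0.57, SE 0.10, adjusted p = 6.05e-05). Lrp1, a large endocytic lipoprotein receptor, rose by 0.48 (SE 0.10, adjusted p = 3.22e-04), while Commd1, part of the machinery that recycles such receptors, fell by 0.50 (log2 fold change -0.50, SE 0.16, adjusted p = 0.0123). The NC libraries of Commd1, at 21.73 and 15.96 CPM, differed by more than NC 2 did from the KO libraries, at 13.89 and 12.59 CPM. Pdss1, the partner of Pdss2 in coenzyme Q synthesis, fell by 0.62 (log2 fold change -0.62, SE 0.21, adjusted p = 0.0171).

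The estimated mean transcript length of Mylip was 2176 and 2261 bases in NC and 3065 bases in both KO libraries, from 10 to 20 counts per library. That of Soat1 was 3682 and 1753 bases in NC and 1713 and 3981 bases in KO, so its libraries differed as much within a group as between groups.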
